A study of Homo sapiens and Mus musculus with 15 samples.

Results

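PSMB5, PSMB6 and PSMB7 encode the 3 constitutive catalytic subunits of the proteasome, the targets of bortezomib and carfilzomib. Each was looked up by its symbol in the gene count table of every library, with the title-case spelling Psmb5, Psmb6 and Psmb7 in the mouse tables, and all 3 were found among the 23346 genes of the human tables and among the 23329 genes of the mouse tables. All 3 passed the filter on low counts in both species. Transcript levels were compared across 15 libraries in 5 groups of 3. The 8226 CR group was the human myeloma line RPMI-8226 selected for carfilzomib resistance and kept in 10 nM carfilzomib, and the 8226 BR group was the same line selected for bortezomib resistance and kept in 10 nM bortezomib. The 8226 naive group was RPMI-8226 without drug selection. The 5TGM1 BR group was the mouse myeloma line 5TGM1 selected for bortezomib resistance and kept in 20 nM bortezomib, and the 5TGM1 naive group was 5TGM1 without drug selection; 5TGM1 derives from a plasma cell tumour that arose in C57Bl/KaLwRij mice. The resistant lines were raised over months in rising drug and were taken off it 5 days before RNA was extracted, and all cells grew in the same serum-rich medium. Each resistant group is a single derived line, so drug, selection and drift of that line cannot be told apart. The labels do not say whether replicates came from separate cultures, and p-values then measure only the spread between libraries, which may be technical.

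The 20S proteasome is a barrel of stacked rings of alpha and beta subunits that cuts proteins inside its chamber. Cutting is done by β5, encoded by PSMB5, with chymotrypsin-like activity, by β1, encoded by PSMB6, with caspase-like activity, and by β2, encoded by PSMB7, with trypsin-like activity. Both drugs bind first of all to β5, bortezomib reversibly through a boronic acid and carfilzomib for good through an epoxyketone. Interferon-inducible counterparts, encoded by PSMB8, PSMB9 and PSMB10, take the places of β5, β1 and β2 in the immunoproteasome. Myeloma cells, which secrete large amounts of immunoglobulin, depend on the proteasome more than most cells, and inhibitors of it are standard drugs for the disease.

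Each catalytic subunit is made with a leading peptide that is cut off during assembly, which bares a threonine that carries out the cut and that both drugs bind. The stretches of coding sequence around that threonine are shown because they are the drug-binding end of each protein and show how far the 3 genes differ in sequence. The 60 bases run from 4 codons before the threonine codon, which is in capitals, to 15 codons after it, on the coding strand, as in the human reference transcripts of GENCODE (GRCh38). They are reference sequences, not sequences read from these cells.
PSMB5: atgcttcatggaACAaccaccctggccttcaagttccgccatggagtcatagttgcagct
PSMB6: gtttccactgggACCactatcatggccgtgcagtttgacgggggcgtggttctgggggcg
PSMB7: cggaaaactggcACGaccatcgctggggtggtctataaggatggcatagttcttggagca
The stretch of PSMB5 lies on the minus strand at chr14:23033648-23034716, that of PSMB6 on the plus strand at chr17:4796285-4796775 and that of PSMB7 on the minus strand at chr9:124413985-124414880. Each is coding sequence split by an intron, between exons 1 and 2 in PSMB5 and PSMB6 and between exons 2 and 3 in PSMB7. The threonine codon is codon 60 in PSMB5, codon 35 in PSMB6 and codon 44 in PSMB7, counted from the start codon. PSMB5 and PSMB6 were identical at 30 of the 60 positions, PSMB5 and PSMB7 at 26 and PSMB6 and PSMB7 at 33. No window of 50 bases in the reference transcript of a member occurred exactly in a reference transcript of another human gene. Inexact matches, matches elsewhere in the genome and the mouse genes were not examined. The longest run shared between a member and an inducible counterpart was 22 bases, between PSMB5 and PSMB8. The pseudogene PSMB7P1 shared a run of 36 bases with PSMB7.

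Reads on genes totalled 31709636 to 58419576 per human library and 49097494 to 72288680 per mouse library, and the members themselves had 1943 to 22720 reads per library. Levels below are read counts scaled to library size (CPM, with TMM factors), given as mean ± SD over 3 libraries, and differences are log2 fold changes ± SE from edgeR's quasi-likelihood test, called at a Benjamini-Hochberg adjusted p below 0.05 over all genes. Of the plasma cell marker genes, 7 of 7 in every 8226 group and 5 of 6 in both 5TGM1 groups averaged at least 10 CPM. Summed markers of B cells, T cells, macrophages, fibroblasts and red cells were each at most 1.60 CPM in every 8226 BR and 8226 CR library. In the other groups the largest such sums were 38.2 to 39.97 CPM for B cell genes in 8226 naive libraries and, for macrophage genes, 25.2 to 26.2 CPM in 5TGM1 BR and 19.2 to 20.2 CPM in 5TGM1 naive libraries.

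**Figure D1:**
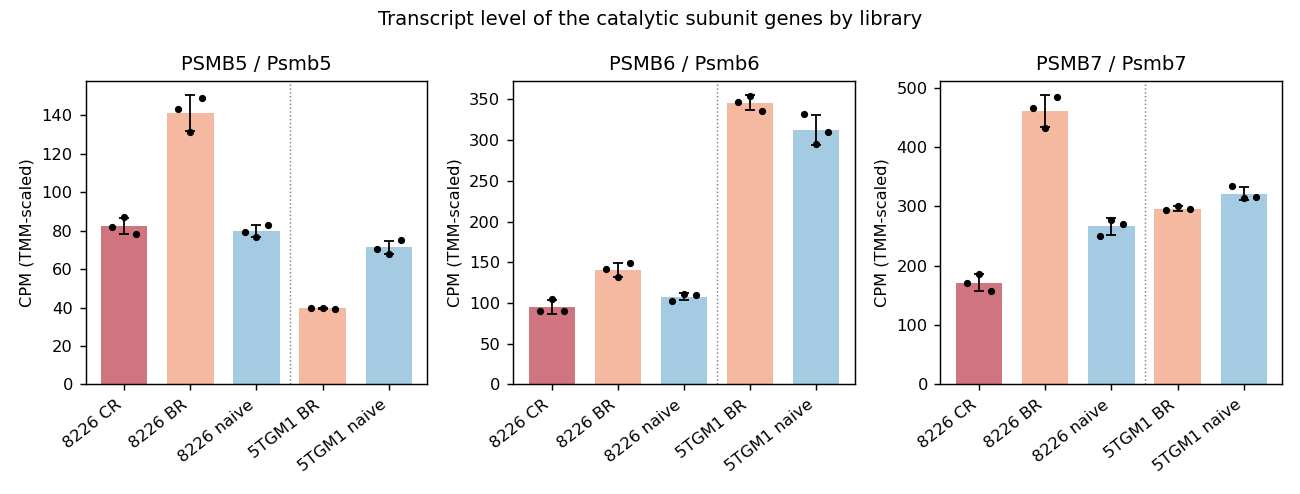
CPM of the constitutive catalytic subunit genes in all 15 libraries; bars are group means, error bars are SD (n = 3), points are libraries, the y axes differ between panels and a dotted line parts the 8226 groups from the 5TGM1 groups. PSMB5, PSMB6 and PSMB7 all stand highest among 8226 groups in 8226 BR, and Psmb5 stands lower in 5TGM1 BR, at 39.6 CPM, than in 5TGM1 naive, at 71.3 CPM.

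The catalytic genes did not move together across the resistant lines. In 8226 cells, PSMB5 was at 82.5 ± 4.28 CPM in CR, 141 ± 9.12 CPM in BR and 79.6 ± 3.16 CPM in naive libraries, so its order was BR highest, with CR and naive overlapping. PSMB6 was at 95.0 ± 8.16 CPM in CR, 141 ± 8.36 CPM in BR and 108 ± 4.29 CPM in naive libraries, again with BR highest and with CR and naive overlapping. PSMB7 was at 172 ± 14.2 CPM in CR, 461 ± 26.3 CPM in BR and 266 ± 14.0 CPM in naive libraries, and all 3 groups stood apart. In bulk samples, fewer cells of a type and less RNA per cell cannot be told apart. In 5TGM1 cells, Psmb5 was at 39.6 ± 0.218 CPM in BR and 71.3 ± 3.50 CPM in naive libraries, Psmb6 at 346 ± 9.03 CPM in BR and 312 ± 18.5 CPM in naive libraries, and Psmb7 at 297 ± 3.81 CPM in BR and 322 ± 11.6 CPM in naive libraries.

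Levels of different genes can be set side by side only per length of transcript, which was available for the human genes. Taking the longest protein-coding reference transcript, of 1294 bases for PSMB5, 871 for PSMB6 and 980 for PSMB7, the order per kilobase was PSMB5 lowest, PSMB6 next and PSMB7 highest in each 8226 group. PSMB5 was at 63.8 ± 3.31 CPM per kilobase in CR, 109 ± 7.05 in BR and 61.6 ± 2.44 in naive libraries. PSMB6 was at 109 ± 9.37 CPM per kilobase in CR, 162 ± 9.60 in BR and 124 ± 4.92 in naive libraries. PSMB7 was at 175 ± 14.5 CPM per kilobase in CR, 470 ± 26.8 in BR and 272 ± 14.3 in naive libraries. Within each group the libraries of these 3 genes did not overlap. Among the inducible genes, PSMB8, the counterpart of PSMB5, was at 93.9 ± 1.18 CPM per kilobase in CR, 71.6 ± 3.08 in BR and 57.8 ± 5.65 in naive libraries; it stood above PSMB5 in every CR library and below it in every BR library, and the genes overlapped in naive libraries. PSMB9 and PSMB10, the counterparts of PSMB6 and PSMB7, were below them in every 8226 library.

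**Figure D2:**
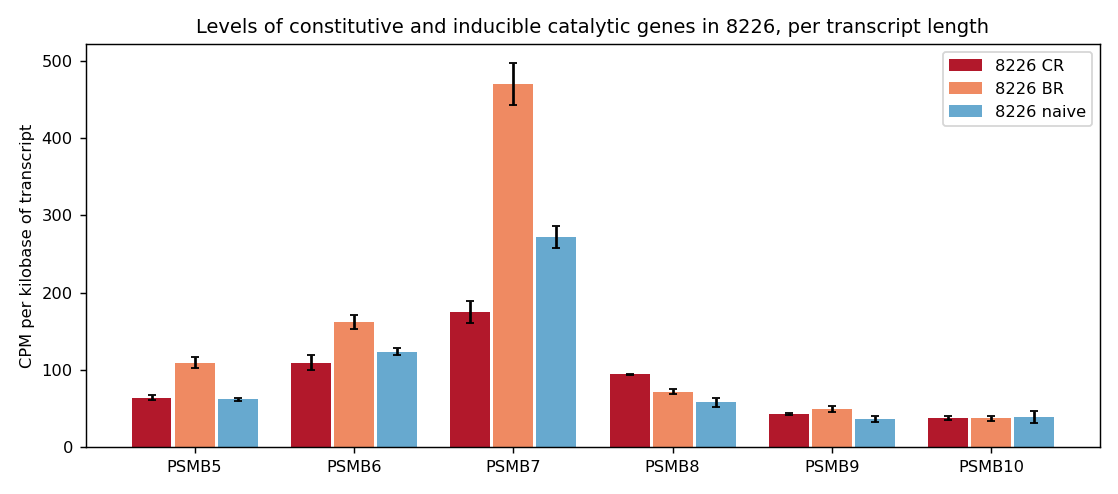
CPM per kilobase of the longest protein-coding reference transcript for constitutive (PSMB5 to PSMB7) and inducible (PSMB8 to PSMB10) catalytic genes in the 8226 groups; bars are means and error bars SD (n = 3). PSMB7 is the tallest bar of each group, and PSMB8 exceeds PSMB5 in 8226 CR, at 93.9 against 63.8.

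Carfilzomib-resistant 8226 cells held less PSMB7 transcript than naive cells and about as much PSMB5. PSMB7 was at 170.3, 186 and 158 CPM in CR libraries, against 251, 278 and 270.1 CPM in naive libraries, with no overlap (-0.63 ± 0.0651, edgeR adjusted p = 1.5e-07). PSMB6 was at 90.6, 104 and 90.0 CPM in CR libraries, against 103, 111 and 109.6 CPM in naive libraries. It was called lower (-0.18 ± 0.0648, edgeR adjusted p = 0.0198), but CR replicate 2 lay above naive replicate 1, and the call was lost without CR replicate 1 (-0.14, edgeR adjusted p = 0.124), without CR replicate 3 (-0.14, edgeR adjusted p = 0.104) and with library size alone (-0.12, edgeR adjusted p = 0.108). PSMB5 was at 82.1, 87.0 and 78.5 CPM in CR libraries, against 79.2, 76.7 and 83.0 CPM in naive libraries. The groups overlapped, and the difference was not called (0.05 ± 0.0602, 95% interval -0.08 to 0.18, edgeR adjusted p = 0.466). Thus 2 of 3 members were called in this comparison, in which 71.5% of the 13910 genes tested were called, and 1 of 3 had no overlap between groups, as did 73.1% of genes. Of all genes tested, 35.7% changed by more than PSMB7.

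Bortezomib-resistant 8226 cells held more transcript of all 3 genes than naive cells, with the smallest change in PSMB6. PSMB5 was at 143, 131 and 149 CPM in BR libraries, against 79.2, 76.7 and 83.0 CPM in naive libraries (0.83 ± 0.0603, edgeR adjusted p = 1.2e-09). PSMB7 was at 466, 432 and 484 CPM in BR libraries, against 251, 278 and 270.1 CPM in naive libraries (0.79 ± 0.0649, edgeR adjusted p = 5.6e-09). PSMB6 was at 142, 132 and 149 CPM in BR libraries, against 103, 111 and 109.6 CPM in naive libraries (0.39 ± 0.0648, edgeR adjusted p = 3.3e-05). No member's groups overlapped, and every BR library was above every naive library. In this comparison 38.1% of genes were called higher, 41.4% lower and 79.5% were called in either direction, and 79.6% had no overlap, so 3 of 3 members called is near the background. The median size of a change over all genes was 0.59, which the changes of PSMB5 and PSMB7 exceed and that of PSMB6 does not.

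The resistant 8226 lines were also set against each other, where the drug and the derived line it came with cannot be told apart. All 3 genes were lower in CR than in BR libraries, and no library overlapped. PSMB7 differed most, by -1.43 ± 0.0659 (edgeR adjusted p = 2.6e-12), a level in CR cells 0.372 times that in BR cells, and 21.0% of all genes differed by more. PSMB5 differed by -0.78 ± 0.0600 (edgeR adjusted p = 2.9e-09) and PSMB6 by -0.57 ± 0.0648 (edgeR adjusted p = 4.2e-07). In this comparison 36.8% of genes were called lower, 76.5% in either direction, and 79.8% had no overlap. This comparison shares its libraries with the 2 comparisons with naive cells, so its values follow from theirs and are not a separate observation.

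Bortezomib-resistant 5TGM1 cells held less Psmb5 transcript than naive cells, with small changes in the other members. Psmb5 was at 39.5, 39.8 and 39.4 CPM in BR libraries, against 70.7, 68.1 and 75.0 CPM in naive libraries (-0.85 ± 0.0458, edgeR adjusted p = 3.1e-11), and 12.6% of the 11974 genes tested changed by more. The BR libraries lay close together, all under the lowest naive library. Psmb6 was at 347, 354 and 336 CPM in BR libraries, against 332, 295 and 309.8 CPM in naive libraries (0.15 ± 0.0448, edgeR adjusted p = 0.0078), with a gap between groups narrower than the spread inside either. Psmb7 was at 294, 301 and 295 CPM in BR libraries, against 335, 314 and 316 CPM in naive libraries (-0.12 ± 0.0395, edgeR adjusted p = 0.015). The call of Psmb6 was lost without naive replicate 2 (0.10, edgeR adjusted p = 0.0537) and that of Psmb7 without BR replicate 3 (-0.11, edgeR adjusted p = 0.0686). In this comparison 34.1% of genes were called higher, 33.2% lower and 67.3% in either direction, and 69.7% had no overlap. The median size of a change over all genes was 0.25, above that of Psmb6 and Psmb7.

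**Figure D3:**
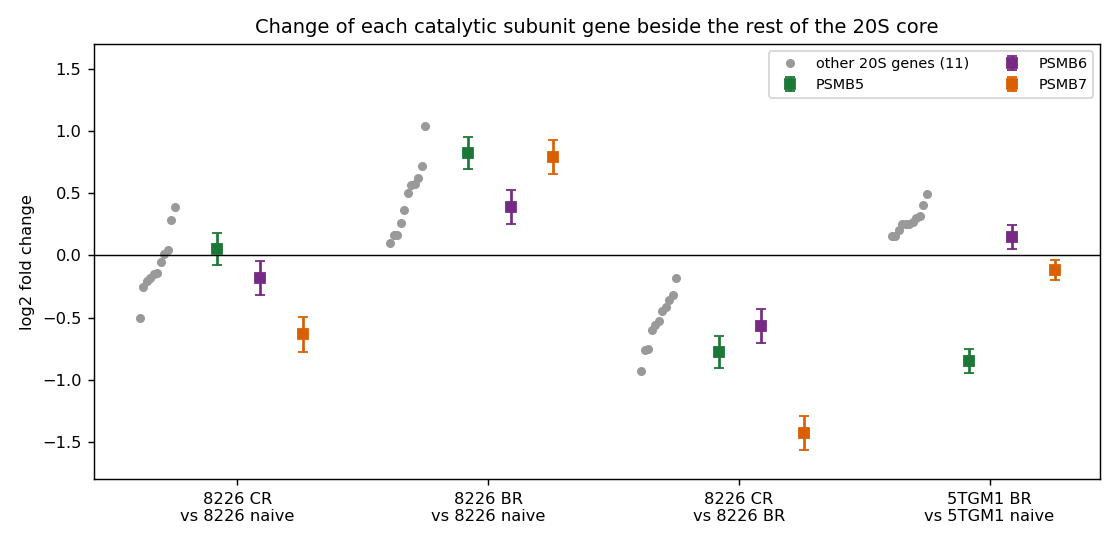
Log2 fold change of each constitutive catalytic gene in the 4 comparisons (squares, with 95% intervals of the edgeR fit) beside those of the 11 other constitutive 20S genes (grey points, ordered by value). Psmb5 lies below every other 20S gene in 5TGM1 BR against naive, at -0.85 where the lowest of the others is at 0.15, and PSMB7 lies below every other 20S gene in 8226 CR against naive and against BR.

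The change that came with bortezomib resistance differed between the lines for every member. It was tested as an interaction over 11847 genes with the same symbol in both species, which is a match of symbols and not a table of orthologues. The change of PSMB5 in 8226 minus that in 5TGM1 was 1.69 ± 0.0808 (edgeR adjusted p = 1.0e-13), a rise in 8226 against a fall in 5TGM1. That of PSMB7 was 0.93 ± 0.0760 (edgeR adjusted p = 7.4e-10) and that of PSMB6 was 0.26 ± 0.0793 (edgeR adjusted p = 0.0063). Over all genes 31.3% were called in this direction and 64.8% in either. A larger difference between lines than that of PSMB5 was seen in 25.4% of genes, than that of PSMB7 in 40.1% and than that of PSMB6 in 76.8%. The median size of the difference over all genes was 0.68, above that of PSMB6. The filter on low counts was applied to both lines together, so these shares include genes with few reads in one of the lines. Species, line, drug dose and selection all differ between these pairs and cannot be told apart.

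**Figure D4:**
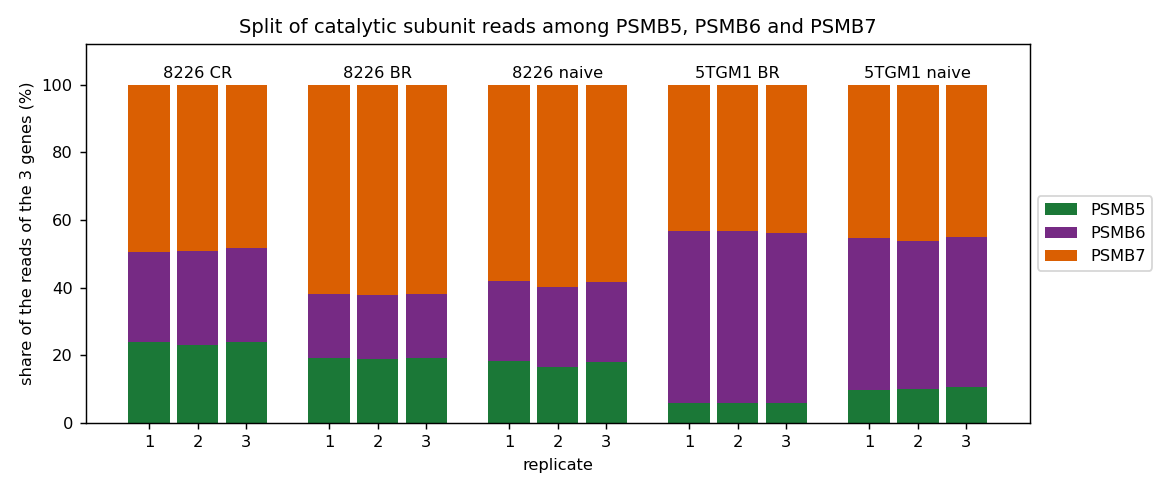
Share of the reads of PSMB5, PSMB6 and PSMB7 that fell on each gene, per library, in percent of the 3 genes together, with no correction for transcript length. The green share of PSMB5 averages 23.7% in 8226 CR, 18.997% in 8226 BR, 17.6% in 8226 naive, 5.81% in 5TGM1 BR and 10.1% in 5TGM1 naive libraries.

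Ratios taken inside a library do not depend on how libraries are scaled, and they show which members changed unequally. With 3 libraries against 3, an exact two-sided permutation test cannot go below p = 0.1. Over 12 measures in 4 comparisons, 48 tests in all, that smallest p corresponds to an adjusted p of 0.112, so none could pass and the ratios are given by their size and overlap. Of the 12 measures, 11 had no overlap between groups in 8226 CR against naive and 9 in 8226 BR against naive. The count was 11 in 8226 CR against BR and 12 in 5TGM1 BR against naive. Over single genes, the shares without overlap were 73.1%, 79.6%, 79.8% and 69.7% in the same order of comparisons. The measures share genes and are not independent, and ratios of other genes were not computed. PSMB5 reads made up 23.9%, 23.0% and 24.0% of the reads of the 3 members in CR libraries, 19.1%, 18.8% and 19.04% in BR libraries and 18.3%, 16.5% and 17.9% in 8226 naive libraries. Both resistant 8226 groups were above naive, CR by 6.08 and BR by 1.42 percentage points (exact permutation p = 0.1 for each). In 5TGM1 the share of Psmb5 was 5.82%, 5.73% and 5.87% in BR libraries, against 9.58%, 10.1% and 10.7% in naive libraries, a difference of -4.31 percentage points in the opposite direction (exact permutation p = 0.1). PSMB7 gave 49.1% ± 0.646 of the reads in CR, 62.0% ± 0.116 in BR and 58.7% ± 0.938 in 8226 naive libraries. PSMB6 gave 27.2% ± 0.679 in CR, 18.97% ± 0.107 in BR and 23.7% ± 0.0359 in 8226 naive libraries.

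The log2 ratio of PSMB5 to PSMB6 was -0.20 ± 0.0602 in CR, 0.00 ± 0.0163 in BR and -0.43 ± 0.0810 in 8226 naive libraries, so it was higher in both resistant 8226 lines than in naive libraries, with no overlap. In 5TGM1 the same ratio was -3.13 ± 0.0303 in BR and -2.13 ± 0.0933 in naive libraries, a difference of -0.99. The ratio of PSMB5 to PSMB7 was 0.69 higher in CR than in naive libraries (exact permutation p = 0.1). In BR against naive libraries that ratio differed by 0.03 with overlap between groups (exact permutation p = 0.8), and its sign turned without naive replicate 2 (-0.02) and with reads counted without regard to strand (-0.05). In 5TGM1 it differed by -0.73 between BR and naive libraries, with no overlap. Among 8226 BR libraries these ratios were tight, with an SD of 0.0122 for PSMB5 to PSMB7 and of 0.00928 for PSMB6 to PSMB7, while the same SDs in naive libraries were 0.103 and 0.0219.

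The catalytic genes were next set against the rest of the constitutive 20S core, the 4 structural beta genes PSMB1 to PSMB4 and the 7 alpha genes PSMA1 to PSMA7, which form the walls and the gates of the barrel. In 8226 CR against naive libraries 2 of these 11 genes rose and 6 fell (median -0.14), where 34.9% of all genes were called higher and 36.6% lower and the median over all genes was -0.00. PSMB4 (0.39) and PSMB2 (0.29) rose, PSMA2 (-0.50) and PSMB3 (-0.25) fell, and PSMB1 differed by 0.01 and was not called. In 8226 BR against naive libraries 10 of the 11 rose and PSMA2 was not called (median 0.50, against -0.03 over all genes, of which 38.1% were called higher), and PSMB2 (1.04) and PSMA7 (0.72) changed most. In CR against BR libraries all 11 fell (median -0.53, against 0.02 over all genes, of which 36.8% were called lower), led by PSMA7 (-0.93), PSMA1 (-0.76) and PSMB2 (-0.75). In 5TGM1 BR against naive libraries all 11 rose (median 0.25, against 0.00 over all genes, of which 34.1% were called higher), led by Psmb1 (0.50) and Psmb3 (0.40), while Psmb5 fell.

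Relative to the mean log2 level of those 11 genes, the log2 level of PSMB7 in CR libraries was -0.26 ± 0.0650, against 0.31 ± 0.0281 in naive libraries, a difference of -0.57. In BR libraries it was 0.63 ± 0.0433, 0.33 above naive libraries. PSMB5 relative to the same genes was at -1.32 ± 0.0226 in CR and -1.43 ± 0.0999 in naive libraries, with overlap (difference 0.12, exact permutation p = 0.2), and at -1.07 ± 0.0542 in BR libraries (difference from naive 0.36, exact permutation p = 0.1). PSMB6 relative to the other 20S genes differed by -0.12 in CR against naive with no overlap (exact permutation p = 0.1), -0.08 in BR against naive with overlap, and -0.04 in CR against BR with overlap; the last turned to 0.02 when only the 7 alpha genes were used. In 5TGM1, Psmb5 was at -2.85 ± 0.0190 in BR and -1.72 ± 0.0587 in naive libraries on this scale, a difference of -1.12. Psmb7 differed by -0.39 and Psmb6 by -0.13 on the same scale, so each of the 3 catalytic genes stood lower against the rest of the core in BR than in naive 5TGM1 libraries, with no overlap.

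Each constitutive catalytic gene has an inducible counterpart, and the counterparts are described in the same order. PSMB8, the β5 counterpart, was at 127 ± 1.60 CPM in CR, 96.8 ± 4.16 CPM in BR and 78.1 ± 7.64 CPM in 8226 naive libraries, called higher in CR (0.70) and in BR (0.31) than in naive cells. PSMB9, the β1 counterpart, was at 33.7 ± 0.897 CPM in CR, 38.6 ± 3.17 CPM in BR and 28.2 ± 3.07 CPM in naive libraries (0.25 in CR and 0.45 in BR against naive, both called). PSMB10, the β2 counterpart, was at 45.0 ± 3.01 CPM in CR, 45.2 ± 4.30 CPM in BR and 47.3 ± 9.16 CPM in naive libraries and was called in no 8226 comparison. In 5TGM1 all 3 fell, with Psmb8 at 134 ± 2.23 CPM in BR and 395 ± 11.8 CPM in naive libraries (-1.56), Psmb9 at 31.0 ± 0.566 CPM in BR and 85.7 ± 4.30 CPM in naive libraries (-1.47) and Psmb10 at 39.7 ± 1.69 CPM in BR and 77.3 ± 4.17 CPM in naive libraries (-0.96). PSMB11, which encodes the catalytic subunit of thymic epithelium, had 0 reads in all 9 human libraries and in the 5TGM1 BR libraries and 3 to 5 reads in each 5TGM1 naive library.

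The balance of PSMB5 to PSMB8 ran in opposite directions in the resistant 8226 lines. The log2 ratio of their reads was -0.62, -0.56 and -0.68 in CR libraries, 0.62, 0.45 and 0.56 in BR libraries and 0.18, -0.14 and 0.06 in naive libraries, with all naive libraries lying between the resistant groups. In 5TGM1 it was -1.74, -1.77 and -1.77 in BR libraries, against -2.50, -2.49 and -2.43 in naive libraries, a difference of 0.71 toward Psmb5 although Psmb5 itself was lower in BR. The ratio of PSMB6 to PSMB9 was 1.49 ± 0.0942 in CR, 1.87 ± 0.0561 in BR and 1.94 ± 0.136 in 8226 naive libraries, and 3.48 ± 0.0368 in 5TGM1 BR and 1.86 ± 0.0389 in 5TGM1 naive libraries. The ratio of PSMB7 to PSMB10 was 1.93 ± 0.0366 in CR, 3.35 ± 0.0594 in BR and 2.51 ± 0.281 in 8226 naive libraries, and 2.90 ± 0.0482 in 5TGM1 BR and 2.06 ± 0.0614 in 5TGM1 naive libraries.

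**Figure D5:**
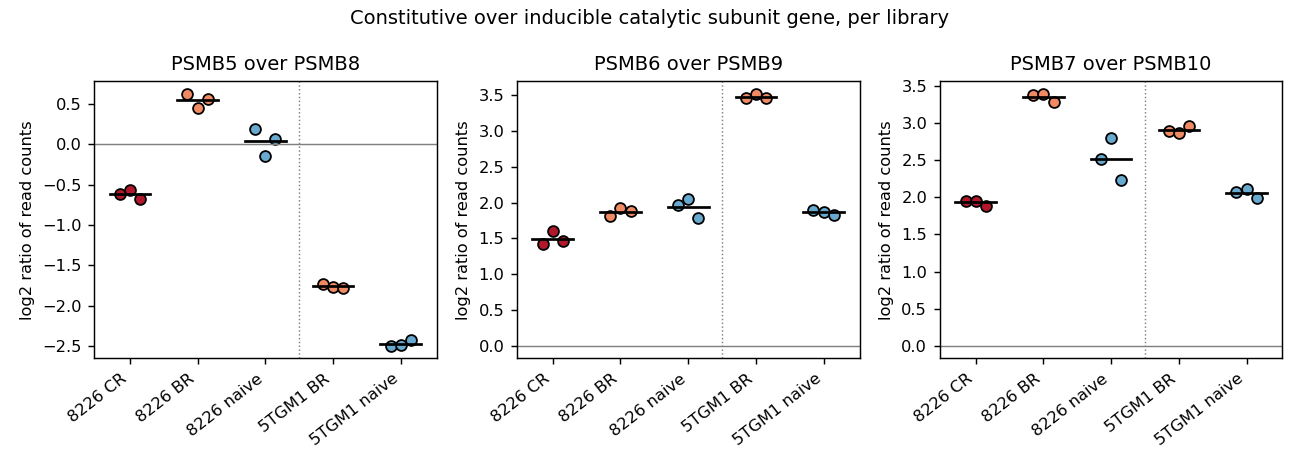
Log2 ratio of read counts of each constitutive catalytic gene to its inducible counterpart, per library (points) with group means (lines), with no correction for transcript length; a dotted line parts the 8226 groups from the 5TGM1 groups. The ratio lies below naive in 8226 CR in all 3 panels and above naive in 5TGM1 BR in all 3 panels.

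Other proteasome genes were counted for context. The 19S cap recognises and unfolds substrates. Its list held 22 genes chosen by symbol (PSMC1 to PSMC6, PSMD1 to PSMD14, ADRM1 and SHFM1). They need not all encode parts of the finished cap. Of these 22 genes, 5 rose and 6 fell in 8226 CR against naive (median -0.06). There, 34.9% of all genes were called higher and 36.6% lower. In 8226 BR against naive, 13 rose and 5 fell (median 0.22), beside 38.1% of all genes higher and 41.4% lower. In CR against BR, 6 rose and 13 fell (median -0.25), beside 39.7% of all genes higher and 36.8% lower. In 5TGM1 BR against naive, 11 rose and 2 fell (median 0.10), beside 34.1% of all genes higher and 33.2% lower. PSMD6, a lid subunit, was lower in BR than in naive cells of both lines (-1.09 in 8226 and -0.95 in 5TGM1). So was the base ATPase PSMC6 (-0.38 in 8226 and -0.68 in 5TGM1). Most called genes of this list went the other way in BR, led by PSMC1 in 8226 (0.68) and Psmd4 in 5TGM1 (0.45). In CR against naive, SHFM1 fell most (-1.14) and PSMD4 rose most (0.47). Among 5 assembly genes, POMP, the chaperone that guides beta subunits into place, was higher in 8226 BR than in naive libraries (0.70) and was not called in CR against naive (-0.04) or in 5TGM1 (-0.07). PSMG1 and PSMG2, a chaperone pair for the alpha ring, were both lower in 8226 BR than in naive libraries (-0.47 and -0.43), while in CR against naive PSMG1 rose (0.31) and PSMG2 fell (-0.45). The PA28 activator genes PSME1 and PSME2 were lower than in naive cells in CR (-0.59 and -0.39), in 8226 BR (-0.44 and -0.24) and in 5TGM1 BR (-1.23 and -1.17).

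NFE2L1 encodes NRF1, the transcription factor known to raise proteasome subunit genes as a group when the proteasome is inhibited. It was at 189.6 ± 3.81 CPM in CR, 242 ± 7.13 CPM in BR and 211 ± 10.6 CPM in 8226 naive libraries, called lower in CR (-0.15) and higher in BR (0.20) than in naive cells. In 5TGM1 it was at 450.1 ± 8.23 CPM in BR and 381 ± 14.6 CPM in naive libraries (0.24, called). There, Psmb5 and Psmb7 fell, while Psmb6 and all 11 other constitutive 20S genes rose. DDI2, the protease that activates NRF1, rose in CR (0.44) and fell in 8226 BR (-0.79) against naive cells. A transcript level says nothing of the activity of the factor. The core of the antioxidant response element, to which NRF1 binds (TGACNNNGC, both strands), was found in 13.3% of the 35116 RefSeq promoter windows (GRCh38.p14, 250 bases before to 50 after each start) and in neither of the windows of PSMB5; the CCAAT box (CCAAT, both strands) was found in 34.6% of all windows and once in 1 PSMB5 window. Of the 14 constitutive 20S genes, 10 had a window, and together these genes had 14 windows. Counted by window, as the shares over all windows are, 2 of the 14 held TGACNNNGC, in PSMA4 and PSMB3, and 7 held CCAAT. PSMB6 and PSMB7 had no window, so their promoters were not examined.

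Human PSMB7 is the member for which the handling of strand matters. Reads of PSMB5 and PSMB6 counted without regard to strand were no fewer than those on the gene's own strand and at most 100.3% of them, and for PSMB7 they came to 37.2% to 44.6%. In the RefSeq annotation PSMB7 overlaps 2 genes, LOC100129034 and LOC124902267, of which the first is described here, and reads on more than 1 gene are set aside as ambiguous when strand is ignored. The column for the other strand of LOC100129034 held 4310 to 10283 reads, and its own strand 288 to 876. LOC100129034 itself was at 8.26 ± 0.472 CPM in CR, 8.62 ± 0.738 CPM in BR and 18.7 ± 1.42 CPM in naive libraries, lower than naive in CR (-1.18, edgeR adjusted p = 1.4e-09) and in BR (-1.12, edgeR adjusted p = 2.8e-09) and not called between CR and BR (-0.06). Its part in the level of PSMB7 was not tested. Counting without strand kept the direction and the call of every PSMB7 comparison. In the mouse libraries the share was 100.5% to 100.9% for Psmb7.

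Most of the genes next to PSMB7 on human chromosome 9 were lower in CR as well. Of the 10 tested genes nearest to it in RefSeq order, 5 on each side, 8 were called lower and 0 higher in CR against naive (median -0.55), and 8 lower and 0 higher in CR against BR (median -0.51), while in BR against naive 4 were higher and 4 lower (median 0.02). Over all genes 34.9% were called higher and 36.6% lower in CR against naive, and 36.8% lower in CR against BR. In BR against naive 38.1% of all genes were called higher and 41.4% lower. GOLGA1 was at -0.42, ARPC5L at -0.56, RPL35 at -0.84 and STRBP at -0.46 in CR against naive, all called. In BR against naive, where PSMB7 rose, ARPC5L (-0.52), RPL35 (-0.35) and STRBP (-0.18) were also called lower. GOLGA1 was not called there (0.11), and ARPC5L was not called between CR and BR (-0.04). The 10 genes include LOC100129034, which overlaps PSMB7 and was called lower than naive in both resistant lines. DNA copy number was not measured, and its part in the level of PSMB7 was not tested. Of the 10 neighbours of PSMB5 on chromosome 14, 3 were higher and 3 lower in CR against naive, and 3 higher and 5 lower in BR against naive (medians 0.07 and -0.10). Of the 10 neighbours of PSMB6 on chromosome 17, 3 were higher and 4 lower in CR against naive, and 3 higher and 5 lower in BR against naive (medians -0.12 and -0.37).

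The genes whose pattern was most like each member's were found by Pearson's r of log2 CPM over all 15 libraries, after the naive mean of each line was subtracted, among 8944 genes tested in both lines. The libraries fall into 5 groups, so r follows the group means closely and is given as a description. Those most like PSMB5 were ACAT2, RHOBTB2, MZT1, GMFB and PDCL (r from 0.990 to 0.983). ACAT2, a thiolase of cytosolic acetyl-CoA, was at -0.01 in CR, 1.25 in 8226 BR and -1.20 in 5TGM1 BR relative to the naive mean of its line. The most alike for PSMB6 were TRAPPC2L, NDUFA2, NDUFA12, NDUFB6 and CNPY4 (r from 0.979 to 0.970), of which the 3 named NDUF encode parts of respiratory complex I. The most alike for PSMB7 were ATOX1, DPF1, RNF215, IRF9 and WDR45 (r from 0.993 to 0.990), all low in CR and high in 8226 BR, with DPF1 at -1.31 in CR, 1.49 in 8226 BR and -0.21 in 5TGM1 BR. Among the members, PSMB6 and PSMB7 had r = 0.908, PSMB5 and PSMB7 0.595 and PSMB5 and PSMB6 0.364. Of the 11 other 20S genes, PSMA1 was nearest to PSMB6, at rank 7 of 8944 (r = 0.967), and PSMB2 was nearest to PSMB5 (r = 0.677).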

How the data were processed

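RNA was sequenced from 15 libraries of 2 myeloma lines. The authors deposited a table of read counts per gene symbol for each library, not normalized, with 3 columns that treat strand differently; the column on the strand that holds almost all gene reads was used. STAR and the builds mm10, hg19, GRCm38 and GRCh37 are named in the submitters' processing notes without assignment to files, and neither a STAR version nor an annotation release is given in the sources used here. The 4 leading rows of reads outside genes were left out; in human libraries reads mapped to several places were 8.95% to 10.9% and in mouse libraries 15.3% to 16.3%. Groups came from the sample titles.

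Counts of each line were fitted in R 4.3.3 with edgeR 4.0.16 (TMM factors 0.937 to 1.08 in 8226 and 0.996 to 1.00 in 5TGM1, filterByExpr, robust quasi-likelihood F test, Benjamini-Hochberg over 13910 or 11974 genes), and SEs were derived from F. All 9 human libraries shared a fit. Ratios were tested by exact permutation over libraries. DESeq2 1.42.0, other scalings, no filter, the column without strand, the replicate number as a block, fits of 2 groups and each replicate left out were alternatives. The code was tested on simulated data. Pairs of replicates differed beyond sampling noise (chi-square per degree of freedom 3.98 to 25.8), so none was counted as a duplicate.

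The members and gene lists were chosen with earlier results of these data known. Named genes are the members, their inducible counterparts, NFE2L1, up to 4 called members of each other proteasome list by size of change, the 5 genes most like each member and 5 tested neighbours on each side. The neighbour order and lengths come from RefSeq (GRCh38.p14) and GENCODE (GRCh38) and were used for human genes only.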

Additional observations from a re-analysis of the deposited data

Results flagged for a closer look

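The same contrast, bortezomib-resistant against naive cells, gave different changes in the 2 lines for each constitutive catalytic gene, by the test of the difference itself. PSMB5 differed by 1.69 on the log2 scale, 0.83 in 8226 and -0.85 in 5TGM1 (edgeR adjusted p = 1.0e-13). PSMB7 differed by 0.93, 0.79 in 8226 and -0.12 in 5TGM1. PSMB6 differed by 0.26, 0.39 in 8226 and 0.15 in 5TGM1, a difference in size and not in direction. Over all genes 64.8% were called in this test, and 76.8% differed between lines by more than PSMB6.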

How the results depend on the processing

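Of 596 values recomputed under the alternatives, 588 were classed as unchanged, by rules that differed in strictness. Fold changes had to keep their direction and their side of the threshold, and counts of called genes to stay within 1.5 times. Within-library ratios and shares had only to keep their direction. The replicate block cannot alter the mean difference of a ratio or share, so those values were unchanged by construction. The call of PSMB6 in 8226 CR against naive cells was lost with library size alone (-0.12). With each replicate left out in turn, that change ran from -0.25 to -0.14 (edgeR adjusted p = 0.124 and 0.104 without CR replicates 1 and 3), that of Psmb6 in 5TGM1 from 0.10 to 0.19 and that of Psmb7 in 5TGM1 from -0.14 to -0.0873. The PSMB5 to PSMB7 ratio in 8226 BR against naive, 0.03 as reported, ran from -0.0247 to 0.0724 with a replicate left out and was -0.0464 without strand. PSMB6 over the other 20S genes in 8226 CR against BR turned to 0.0207 with the alpha genes alone. The cause was not tested. Library size alone moved the median of all genes in 8226 BR against naive to 0.16, against -0.03, and the share of calls that were higher to 58.8%, against 47.9%. No pairing by replicate number was seen. Correlations of deviations ran from -0.09 to 0.08 for equal numbers and from -0.08 to 0.08 for unequal numbers. Such correlations cannot show whether samples with equal numbers were handled together. With the replicate block the change of PSMB5 was 0.05 in 8226 CR, 0.83 in 8226 BR and -0.85 in 5TGM1 against naive, and it changed no call of a member. Counts of called genes with the block were 9956 in 8226 CR, 11054 in 8226 BR and 7756 in 5TGM1 BR against naive. Lengths and promoters of mouse genes were not used here.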
